A study of Mus musculus with 15 samples.

Results

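Muscle of tumour-bearing mice given an antibody against PD-L1 was compared with muscle of tumour-bearing mice given an antibody against CD8a, across all genes. The libraries were taken by their titles, 3 of anti-PD-L1 and 3 of anti-CD8a, so 6 of the 15 libraries of the series entered the comparison. All came from the tibialis anterior, a fast muscle of the shin, taken from male C57BL/6 (C57BL/6NCrlOri) mice aged 6 to 8 weeks, and in both groups KrasIKKaL tumour cells had been put into the windpipe. The anti-PD-L1 mice received 200 µg per kg and the anti-CD8a mice 200 µg of antibody into the abdomen 3 times a week, and the unit of the dose differs in the labels as written here. The other libraries were tumour-bearing mice given a rat IgG2b isotype antibody (IgG, n = 4) and mice without a tumour (control, n = 5). They shared the fit that estimated the spread of each gene, and their levels are given only for orientation. The series names as its purpose the search for targets in cachexia, in which cancer wastes muscle, and in the muscle side effects of immunotherapy.

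PD-L1, encoded by Cd274, is a surface ligand that restrains T cells through the receptor PD-1, and antibodies against it release that restraint. CD8a is a chain of the coreceptor of cytotoxic T cells, and antibodies against it are used to remove those cells. Wasting muscle is known to break down its proteins by the ubiquitin-proteasome system and by lysosomes, under control of FoxO transcription factors, glucocorticoids and inflammatory cytokines.

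The 6 libraries held 17825801 to 22459370 expected counts each, and a gene without a count could still stand at 0.134 to 0.168 CPM (counts scaled to the size of each library), the level that 3 counts would give. Such floors cover counting error only. Nothing in the labels ties each library to its own mouse, so p-values measure the spread between these libraries, which may be technical. The 14 genes of fast fibres made up 71720 to 132400 CPM in the anti-PD-L1 and 125800 to 143800 CPM in the anti-CD8a libraries, so the muscle's defining genes were abundant in both. The first principal component of the 6 libraries held 54.1% of the variance and placed the anti-PD-L1 libraries at 37.7, 68.1 and 21.0 and the anti-CD8a libraries at -51.8, -47.7 and -27.3. The anti-PD-L1 libraries differed more among themselves: the median SD of log2 CPM over genes was 0.308 in anti-PD-L1 and 0.207 in anti-CD8a, and 0.213 in anti-PD-L1 without replicate 2. Anti-PD-L1 replicate 2 was the library of its group farthest from anti-CD8a in 1874 of the 2836 genes called below, and anti-CD8a replicate 3 lay farthest from anti-PD-L1 in only 524.

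Genes of protein breakdown were higher, and genes of mitochondrial respiration and of the calcium store lower, in muscle of anti-PD-L1 mice than of anti-CD8a mice. Of 14372 genes tested, 2836 (19.7%) passed an adjusted p of 0.05 in edgeR's quasi-likelihood test with Benjamini-Hochberg adjustment. These genes are termed called: 1738 (12.1%) were higher in anti-PD-L1 and 1098 (7.64%) lower, and 725 and 586 of them differed at least 2-fold. The counts of every gene list below stand beside these shares, and a count near its share says little about that list. The ranges of both groups did not overlap in 2714 of the called genes and in 38.3% of all genes tested. Over all genes tested the median log2 fold change was 0.05, and every fold change below is anti-PD-L1 minus anti-CD8a. Upper-quartile scaling moved that median to -0.07 and the share of called genes that were higher from 61.3% to 45.1%, so small shifts shared by many genes depend on the scaling. The number called fell to 1226 without anti-PD-L1 replicate 2, to 1252 without anti-CD8a replicate 1 and to 1311 without anti-CD8a replicate 2. In RNA from whole muscle, fewer cells of a type and less RNA per cell cannot be told apart.

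**Figure D1:**
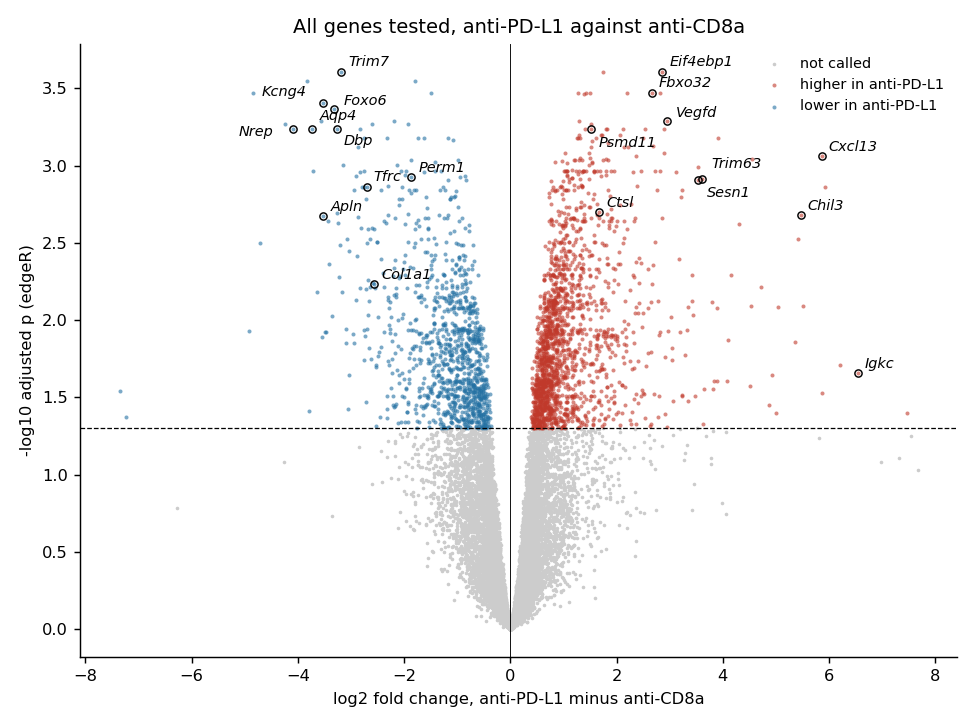
Log2 fold change of anti-PD-L1 minus anti-CD8a (x axis) and -log10 of the edgeR adjusted p (y axis) of the 14372 genes tested; each point is a gene, the dashed line is an adjusted p of 0.05, and 20 genes of the text are ringed. Red points (1738) are higher and blue points (1098) lower in anti-PD-L1.

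The antibody targets themselves did not differ measurably. Cd8a (ENSMUSG00000053977) had 0, 3 and 0 counts in the anti-PD-L1 and 0, 1 and 0 counts in the anti-CD8a libraries, at or below the floor in every library, so a loss of CD8 T cells was not detectable in this muscle at this depth. Cd274 (ENSMUSG00000016496) stood at 1.43, 0.943 and 0.572 CPM under anti-PD-L1 against 0.817, 1.66 and 2.38 CPM under anti-CD8a. Its ranges overlapped, and the log2 fold change of -0.73 ± 0.54 (SE, edgeR adjusted p = 0.349) did not pass.

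Cathepsins are the proteases of the lysosome. Cathepsin L (Ctsl, ENSMUSG00000021477), which the series' title names, stood at 298, 394 and 151 CPM in the anti-PD-L1 libraries (replicates 1 to 3) and 81.1, 97.8 and 85.5 CPM in the anti-CD8a libraries. Every anti-PD-L1 library was above every anti-CD8a library, with replicate 3 the lowest of its group. Its log2 fold change was 1.67 ± 0.29 (SE, edgeR adjusted p = 0.002), and the call held in each of the 12 alternatives, with adjusted p from 4.53e-06 to 0.0341 over them. The anti-CD8a range was near that of control, 71.8 to 89.9 CPM, and the IgG range was 226 to 463 CPM. Of 11 cathepsin genes tested, 4 were higher and none lower, with a median of 0.49. Ctsd, the main aspartic protease of lysosomes, had 1223, 961 and 922 CPM under anti-PD-L1 against 442, 482 and 516 CPM under anti-CD8a, a log2 fold change of 1.11 ± 0.18 (SE, edgeR adjusted p = 0.00129). Ctss, a cathepsin of antigen-presenting cells, had 69.8, 21.1 and 19.7 CPM under anti-PD-L1 against 4.68, 5.31 and 17.3 CPM under anti-CD8a, with anti-PD-L1 replicate 1 far above the rest. Ctsz, a carboxypeptidase, differed by 0.77 ± 0.23 (SE, edgeR adjusted p = 0.0284). The count of higher cathepsins was 2 without anti-PD-L1 replicate 1 or anti-CD8a replicate 1 or 2, the lost calls being Ctss without anti-PD-L1 replicate 1 or anti-CD8a replicate 1 or 2 and Ctsz without anti-PD-L1 replicate 1 or 2 or anti-CD8a replicate 1 or 2. On the scale per transcript length, TPM, Ctsd was the most abundant of those named, at 642 ± 99.8 against 240 ± 22.4 TPM (SD, n = 3 each), before Ctsl at 213 ± 84.5 against 48.9 ± 3.82 TPM, and Ctsl differed more between the groups. Ctsb, a cysteine protease chosen here after its values were seen because muscle expresses it strongly, had 348, 237 and 239 CPM under anti-PD-L1 against 217, 233 and 237 CPM under anti-CD8a and did not pass (edgeR adjusted p = 0.247).

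Trim63 and Fbxo32, the ubiquitin ligases best known from wasting muscle, were several-fold higher under anti-PD-L1. Trim63 (ENSMUSG00000028834), also called MuRF1, which tags proteins of the thick filament, stood at 2152, 6876 and 2607 CPM in the anti-PD-L1 libraries (replicates 1 to 3) and 257, 303 and 391.9 CPM in the anti-CD8a libraries. No library of one group reached the range of the other, and anti-PD-L1 replicate 2 was the highest. The log2 fold change was 3.61 ± 0.58 (SE, edgeR adjusted p = 0.00121). Fbxo32 (ENSMUSG00000022358), also called atrogin-1, had 2172, 4236 and 2779.8 CPM under anti-PD-L1 against 320.3, 455 and 679 CPM under anti-CD8a and a log2 fold change of 2.66 ± 0.31 (SE, edgeR adjusted p = 0.000336), again with replicate 2 highest and no overlap. Fbxo31, a ligase subunit of the same F-box class, differed by 1.38 ± 0.25 with 388, 319.6 and 249 CPM under anti-PD-L1 against 103, 118 and 146 CPM under anti-CD8a. The list of 21 atrophy ligases and FoxO targets held 8 higher and 2 lower genes and had a median of 0.61. A lower member was Foxo6, a FoxO factor, at 0.381, 0.257 and 0.484 CPM under anti-PD-L1 against 5.01, 4.56 and 1.78 CPM under anti-CD8a, a log2 fold change of -3.32 ± 0.41 (SE, edgeR adjusted p = 0.00043). The higher count was 3 without anti-CD8a replicate 1 or 2 and 4 without anti-PD-L1 replicate 2, while the calls of Trim63, Fbxo32, Fbxo31 and Foxo6 held without any one library. Foxo6os, which lies antisense to Foxo6, had the lowest log2 fold change among the named genes, -4.84 ± 0.56, at 0.477, 0.343 and 0.396 CPM under anti-PD-L1 against 14.2, 18.1 and 2.82 CPM under anti-CD8a. Whether counting used the strand of the reads is not given in the sources used here, so reads of this pair cannot be assigned with certainty.

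Because FoxO factors are known regulators of Trim63 and Sesn1, the windows around their start sites are shown, from 250 bases before to 50 bases after the start, as RefSeq gives them on GRCm38.p6. The motif searched was GTAAACA, on both strands, which 3.55% of 27025 promoters of this length hold, and 2 of 16 promoters found for the atrophy list. Capitals mark the match, written here as its reverse complement. Trim63 lies at chr4:134314870-134315169 (plus strand) and Sesn1, by the first of its 2 windows, at chr10:41810324-41810623 (plus strand). A match describes these letters only and is not a measured binding site. No window was found for Fbxo32.
Trim63: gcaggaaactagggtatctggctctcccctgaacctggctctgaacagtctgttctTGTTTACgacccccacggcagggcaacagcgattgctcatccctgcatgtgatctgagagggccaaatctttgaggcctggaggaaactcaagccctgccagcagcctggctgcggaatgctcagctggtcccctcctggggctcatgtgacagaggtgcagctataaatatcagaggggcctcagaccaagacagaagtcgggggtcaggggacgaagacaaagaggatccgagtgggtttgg
Sesn1: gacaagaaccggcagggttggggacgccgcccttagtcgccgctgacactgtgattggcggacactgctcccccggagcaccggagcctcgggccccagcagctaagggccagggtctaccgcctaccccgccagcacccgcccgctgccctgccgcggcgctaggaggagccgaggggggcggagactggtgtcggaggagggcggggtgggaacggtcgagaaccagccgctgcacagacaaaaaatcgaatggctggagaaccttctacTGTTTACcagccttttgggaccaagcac

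Nearly all constitutive core and cap subunits of the proteasome were higher. The proteasome is the barrel-shaped protease that degrades ubiquitin-tagged proteins, built of a catalytic core and a cap that unfolds its substrates. Of 14 core subunits 12 were higher (median log2 fold change 0.79), and of 18 cap subunits all 18 were higher (median 0.88), against 12.1% of all genes. In the cap, Psmd11, a scaffold subunit, stood at 188, 336 and 229.7 CPM in the anti-PD-L1 libraries (replicates 1 to 3) and 86.6, 86.1 and 90.9 CPM in the anti-CD8a libraries. The anti-CD8a libraries lay close together and well below the lowest anti-PD-L1 library, and the log2 fold change was 1.52 ± 0.20 (SE, edgeR adjusted p = 0.000581). Psmd8, of the same lid of the cap, differed by 1.53 ± 0.20, Psmd3 by 1.31 ± 0.19 and Psmd4, a receptor for ubiquitin chains, by 1.31 ± 0.24. In the core, Psma7 had 189, 193 and 172 CPM under anti-PD-L1 against 67.7, 76.2 and 80.7 CPM under anti-CD8a, a log2 fold change of 1.305 ± 0.24 (SE, edgeR adjusted p = 0.00258), followed by Psmb2 at 1.05 ± 0.23, Psma5 at 0.999 ± 0.19 and Psma2 at 0.87 ± 0.21. Without a single library 15 to 18 of the cap subunits were called, whereas the core count was 5 without anti-PD-L1 replicate 2 and 7 without anti-CD8a replicate 1, and the call of Psma2 was among those lost in both cases. The list of alternative activators and assembly factors had a median of 0.05, and 2 of 12 were higher, not far from the 12.1% of all genes. Ddi2, a protease that activates the proteasome's own transcription factor, differed by 1.31 ± 0.31 and Psme4, an alternative cap, by 0.60 ± 0.19. These calls were lost for Ddi2 without anti-PD-L1 replicate 2 or anti-CD8a replicate 2 and Psme4 without anti-PD-L1 replicate 2 or 3 or anti-CD8a replicate 2 or 3.

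Psma7 is shown because core subunits moved together and this promoter window holds TGANNNNGC, a loose form of the core of the antioxidant response element. The motif is short: on either strand it was in 41.4% of 27025 promoters, in 8 of 11 promoters of core subunits and in 6 of 15 of cap subunits. The window, from RefSeq on GRCm38.p6, is chr2:180042415-180042714 on the minus strand, written 5′ to 3′ along the gene. The capitals at its end mark the match, which lies 41 bases after the start site. This match, too, describes letters only and is not a measured binding site.
Psma7: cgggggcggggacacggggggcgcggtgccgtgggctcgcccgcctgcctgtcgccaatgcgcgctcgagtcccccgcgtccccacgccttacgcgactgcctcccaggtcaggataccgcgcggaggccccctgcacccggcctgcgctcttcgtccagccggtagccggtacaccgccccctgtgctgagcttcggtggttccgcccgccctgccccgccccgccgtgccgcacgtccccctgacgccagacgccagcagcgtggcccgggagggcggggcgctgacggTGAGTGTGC

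**Figure D2:**
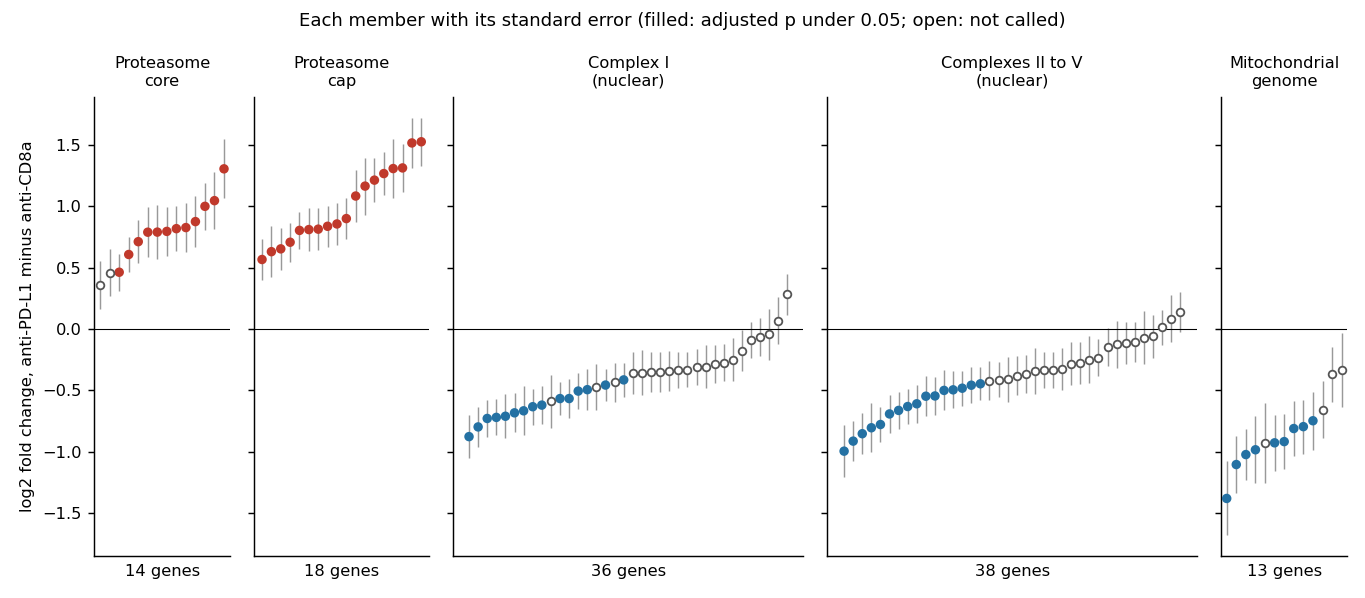
Log2 fold change of anti-PD-L1 minus anti-CD8a (y axis) of each proteasome, respiratory chain and mitochondrially encoded gene tested, ordered within its panel along the x axis; bars are standard errors, filled points are called and open points not. All 18 cap subunits are filled and above 0, and the 9 filled points of the mitochondrial genome are below 0.

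Ubiquitin itself and the machinery that extracts tagged proteins followed the same direction: 12 of 16 genes were higher, none lower, with a median of 0.71. Ubb, a gene for ubiquitin repeats, had 1639, 3123 and 1798 CPM under anti-PD-L1 against 759, 815 and 922 CPM under anti-CD8a and a log2 fold change of 1.39 ± 0.25 (SE, edgeR adjusted p = 0.00219). Nploc4 and Ubxn4, cofactors of the unfoldase VCP, differed by 1.81 ± 0.24 and 1.19 ± 0.21. The count of higher genes was 6 without anti-PD-L1 replicate 2 or anti-CD8a replicate 1 or 2 and 7 without anti-CD8a replicate 3.

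Autophagy delivers cytoplasm and organelles to lysosomes. In the autophagy list 12 of 28 genes were higher and 1 lower (median 0.48). Sqstm1, a receptor that carries ubiquitin-tagged cargo, stood at 854, 1722 and 1360.3 CPM under anti-PD-L1 against 475, 511 and 485 CPM under anti-CD8a, a log2 fold change of 1.42 ± 0.22 (SE, edgeR adjusted p = 0.00108). Map1lc3b and Gabarapl1, which coat the autophagosome, differed by 1.35 ± 0.22 and 1.71 ± 0.38, and Bnip3, a receptor for mitochondria, by 1.49 ± 0.31; none of these groups overlapped. The higher count was 5 without anti-PD-L1 replicate 2, 6 without anti-CD8a replicate 1 or 2 and 7 without anti-CD8a replicate 3, but the calls of all 4 held. In the list of lysosome membrane and proton pump genes 7 of 17 were higher (median 0.40). Npc1, which exports cholesterol from lysosomes, had 158, 388 and 200.2 CPM under anti-PD-L1 against 73.4, 49.1 and 77.6 CPM under anti-CD8a, and its log2 fold change was 1.90 ± 0.34 (SE, edgeR adjusted p = 0.00219). Gaa, which digests glycogen in lysosomes, differed by 1.27 ± 0.21, Atp6v1h, a subunit of the proton pump, by 1.48 ± 0.29 and Npc2 by 0.64 ± 0.13. Their list held 4 without anti-PD-L1 replicate 2 or anti-CD8a replicate 2 or 3. Ctsl, the cathepsin described first, holds CACGTG, the E-box read by clock and lysosomal factors, once in its window (capitals), at chr13:64370471-64370770 on the minus strand of GRCm38.p6 in RefSeq; 7.24% of promoters hold it.
Ctsl: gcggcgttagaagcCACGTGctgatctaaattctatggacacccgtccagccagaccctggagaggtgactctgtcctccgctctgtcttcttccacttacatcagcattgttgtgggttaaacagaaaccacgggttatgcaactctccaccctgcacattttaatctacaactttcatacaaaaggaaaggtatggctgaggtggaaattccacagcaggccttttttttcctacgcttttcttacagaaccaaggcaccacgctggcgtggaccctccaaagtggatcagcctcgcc

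Among genes that restrain protein synthesis, Eif4ebp1 and Sesn1 were clearly higher under anti-PD-L1. Eif4ebp1, which blocks the cap-binding step of translation unless mTORC1 inactivates it, stood at 410, 436 and 275 CPM in the anti-PD-L1 libraries (replicates 1 to 3) and 41.8, 42.9 and 69.7 CPM in the anti-CD8a libraries. The lowest anti-PD-L1 library was several-fold above the highest anti-CD8a library, and the log2 fold change was 2.86 ± 0.29 (SE, edgeR adjusted p = 0.000247). Sesn1, a stress-induced inhibitor of mTORC1, had 319.8, 560 and 90.2 CPM under anti-PD-L1 against 22.6, 24.2 and 36.7 CPM under anti-CD8a and differed by 3.54 ± 0.57 (SE, edgeR adjusted p = 0.00125), with anti-PD-L1 replicate 3 nearest to the other group. Ddit4, an inhibitor induced by glucocorticoids and hypoxia, differed by 1.95 ± 0.61 (SE, edgeR adjusted p = 0.0344), and Sesn2 by 1.06 ± 0.33 (SE, edgeR adjusted p = 0.0337). In all, 5 of 14 such genes were higher and none lower, with a median of 0.19, and the higher count was 2 without anti-PD-L1 replicate 2 or anti-CD8a replicate 1 and 3 without anti-CD8a replicate 2 or 3. Lower calls appeared in other fits: 3 under upper-quartile scaling, DESeq2 or no filter, 2 with the 6 libraries alone or without anti-CD8a replicate 3, and 1 without anti-PD-L1 replicate 1 or 3. The calls lost were Ddit4 without anti-PD-L1 replicate 2 or anti-CD8a replicate 1, 2 or 3 and Sesn2 without anti-PD-L1 replicate 2 or 3 or anti-CD8a replicate 1, 2 or 3, and under upper-quartile scaling that of Sesn2 too.

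Of 12 glucocorticoid-induced genes 6 were higher and none lower (median 1.296). Pik3r1, the regulatory subunit of PI3-kinase, stood at 132, 193 and 156 CPM under anti-PD-L1 against 30.8, 35.5 and 58.3 CPM under anti-CD8a, a log2 fold change of 1.95 ± 0.30 (SE, edgeR adjusted p = 0.00108). Klf15, a transcription factor of amino acid use, differed by 1.75 ± 0.43, Zbtb16 by 1.63 ± 0.41 and Fkbp5, a chaperone of the receptor, by 1.56 ± 0.47, where anti-CD8a replicate 3, at 147 CPM, lay near anti-PD-L1 replicate 3, at 168 CPM. Most calls of this list depended on single libraries: 1 without anti-PD-L1 replicate 2 or anti-CD8a replicate 1 and 3 without anti-CD8a replicate 2. Pik3r1 kept its call, and the losses were Klf15 and Zbtb16 without anti-PD-L1 replicate 2 or anti-CD8a replicate 1 and Fkbp5 without anti-PD-L1 replicate 2 or anti-CD8a replicate 1 or 2.

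Among 12 genes of growth arrest 5 were higher and 1 lower (median 0.82), against 12.1% and 7.64% of all genes, the lower count being near its share. Btg2, which restrains growth, had 156, 335 and 174 CPM under anti-PD-L1 against 23.6, 34.6 and 31.9 CPM under anti-CD8a and a log2 fold change of 2.88 ± 0.42 (SE, edgeR adjusted p = 0.000833). Cdkn1a, an inhibitor of the cell cycle, differed by 2.78 ± 0.62 at 172, 328 and 95.9 CPM under anti-PD-L1 against 18.3, 17.02 and 51.1 CPM under anti-CD8a. Trp53inp1 and Gadd45a differed by 1.86 ± 0.49 and 1.72 ± 0.40, calls lost for Trp53inp1 without anti-PD-L1 replicate 2 or anti-CD8a replicate 2 and Gadd45a without anti-PD-L1 replicate 2. The higher count was 3 without anti-PD-L1 replicate 2, and the lower one was 0 without anti-PD-L1 replicate 2 or anti-CD8a replicate 1.

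The myostatin and activin pathway restrains muscle growth, and its members went both ways, 4 higher and 3 lower of 14 tested, against 12.1% and 7.64% of all genes. Among ligands, Inhbb, a subunit of activin B, was higher by 2.01 ± 0.51 (SE, edgeR adjusted p = 0.0138), and Gdf11, the close relative of myostatin, was lower, at -2.21 ± 0.46 (SE, edgeR adjusted p = 0.0052) with 1.48, 1.84 and 7.48 CPM under anti-PD-L1 against 21.95, 16.1 and 12.1 CPM under anti-CD8a. Acvr1b, a receptor, was higher by 1.502 ± 0.33, and Smad3, the factor that carries the signal to the nucleus, lower, at -1.72 ± 0.38. Myostatin itself (Mstn), outside the naming rule and chosen after its values were seen, had 107, 397 and 149 CPM under anti-PD-L1 against 103, 89.2 and 80.9 CPM under anti-CD8a and just missed the threshold (edgeR adjusted p = 0.0503). The higher count was 1 without anti-CD8a replicate 2, 2 without anti-CD8a replicate 1 and 7 without anti-PD-L1 replicate 1, and the call of Inhbb was lost without anti-CD8a replicate 1 or 2.

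Genes that build ribosomes were higher, while those of the ribosome's own proteins moved by small amounts. Of 24 factors of ribosome biogenesis 15 were higher and none lower (median 0.69), 10 to 16 without any one library. Gnl3, a nucleolar GTPase, stood at 44.1, 101 and 55.5 CPM under anti-PD-L1 against 22.7, 20.8 and 24.01 CPM under anti-CD8a, a log2 fold change of 1.57 ± 0.25 (SE, edgeR adjusted p = 0.00108). Ddx21, an RNA helicase of the nucleolus, differed by 1.31 ± 0.26, Nop14 by 1.06 ± 0.24 and Wdr43 by 1.05 ± 0.16, and only the call of Nop14 was lost, without anti-PD-L1 replicate 2. All 51 ribosomal protein genes had a log2 fold change above 0, with a median of 0.48, and 12 were called; under upper-quartile scaling 3 were, with a median of 0.36. The count was also 1 without anti-PD-L1 replicate 1 or anti-CD8a replicate 1, 2 without anti-CD8a replicate 2, 3 without anti-CD8a replicate 3, 4 without anti-PD-L1 replicate 2 and 19 without anti-PD-L1 replicate 3. Rpl3 differed by 1.21 ± 0.25 (SE, edgeR adjusted p = 0.00466), Rps25 by 0.85 ± 0.22, Rpl32 by 0.84 ± 0.26 and Rpl34 by 0.80 ± 0.24, and the calls lost were Rps25 without anti-PD-L1 replicate 1 or anti-CD8a replicate 1 or 2, Rpl32 without anti-PD-L1 replicate 1 or 2 or anti-CD8a replicate 1, 2 or 3 and Rpl34 without anti-PD-L1 replicate 1 or anti-CD8a replicate 1, 2 or 3. Pseudogenes near-identical to these genes exist, so their counts are less certain. Of 26 translation factors and tRNA synthetases 12 were higher and 1 lower (median 0.46). Eif4a1, the helicase that opens messages for the ribosome, had 157, 269.9 and 168 CPM under anti-PD-L1 against 98.8, 108 and 97.6 CPM under anti-CD8a and a log2 fold change of 0.97 ± 0.21 (SE, edgeR adjusted p = 0.00641). Eif2b1 differed by 0.85 ± 0.15, Eef1a1, the main elongation factor, by 0.84 ± 0.19 and Eif3a by 0.85 ± 0.28, whose call was lost without anti-PD-L1 replicate 2 or any one anti-CD8a library and under upper-quartile scaling. This list held 4 without anti-CD8a replicate 1, 5 without anti-PD-L1 replicate 2 or anti-CD8a replicate 2 and 6 without anti-PD-L1 replicate 1 or anti-CD8a replicate 3 higher genes, and the lower call was absent without anti-PD-L1 replicate 1, 2 or 3 or anti-CD8a replicate 1 or 2.

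Respiratory chain genes were lower under anti-PD-L1, by less than 2-fold each among the nuclear genes. Of 36 nuclear subunits of complex I, the entry point of electrons, 15 were lower and none higher (median -0.39). Of 38 subunits of complexes II to V, 16 were lower and none higher (median -0.40), against 7.64% of all genes. Ndufs1, the largest subunit of complex I, stood at 142, 162 and 159 CPM in the anti-PD-L1 libraries (replicates 1 to 3) and 303, 320.5 and 229 CPM in the anti-CD8a libraries. The groups were well apart, with anti-CD8a replicate 3 nearest to anti-PD-L1, and the log2 fold change was -0.88 ± 0.17 (SE, edgeR adjusted p = 0.00409). Ndufb8, Ndufb7 and Ndufa13 differed by -0.80 ± 0.16, -0.73 ± 0.15 and -0.72 ± 0.15. In the other complexes, Cox7a1, the muscle form of a cytochrome oxidase subunit, differed by -0.997 ± 0.21, Cyc1 of complex III by -0.92 ± 0.16, Atp5j of ATP synthase by -0.85 ± 0.17 and the electron carrier cytochrome c, Cycs, by -0.81 ± 0.20. The count in complex I was 4 without anti-CD8a replicate 2 and 7 without anti-PD-L1 replicate 2, and in complexes II to V 4 without anti-CD8a replicate 2, 7 without anti-PD-L1 replicate 2 and 9 without anti-CD8a replicate 1; the call of Cycs was lost without anti-PD-L1 replicate 2 or anti-CD8a replicate 2. Upper-quartile scaling and DESeq2 gave more, 20 and 22 each, while no filter gave 9 and 9 and the 6 libraries alone 10 and 10.

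The mitochondrial genome's own transcripts were lower as well, 9 of 13 protein-coding genes with a median of -0.92. As a share of all counts, the 37 mitochondrial features made up 14.4%, 11.1% and 12.9% in the anti-PD-L1 libraries and 20.2%, 23.1% and 20.7% in the anti-CD8a libraries. The groups did not overlap. The means were 12.8% ± 1.67 and 21.3% ± 1.53 (SD, n = 3 each), a difference of -8.54 percentage points with an exact permutation p of 0.1, two-sided, the smallest that 3 against 3 can give. mt-Co3, a subunit of cytochrome oxidase, had 8283, 5205 and 9410.1 CPM under anti-PD-L1 against 19123, 23817 and 16752 CPM under anti-CD8a and differed by -1.38 ± 0.30 (SE, edgeR adjusted p = 0.00668). mt-Co1, its catalytic subunit, differed by -1.11 ± 0.24, mt-Nd4l of complex I by -1.02 ± 0.21 and mt-Atp6 of ATP synthase by -0.99 ± 0.27. The count was 4 without anti-PD-L1 replicate 2 and 5 without anti-CD8a replicate 1 or 2, and the call lost was that of mt-Atp6 without anti-PD-L1 replicate 1 or 2 or anti-CD8a replicate 1 or 2. Reads are shared with nuclear copies: 5 such genes, chosen after the data were seen, had 97.2% to 100% of their 31-base words in mitochondrial transcripts, and with them the shares were 17.8% and 27.9%, a difference of -10.01 points.

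Regulators of mitochondria were mostly lower where called. Perm1, a muscle coactivator of mitochondrial genes, stood at 76.1, 44.7 and 60.6 CPM under anti-PD-L1 against 208, 296 and 161 CPM under anti-CD8a, a log2 fold change of -1.87 ± 0.30 (SE, edgeR adjusted p = 0.00119). Esrra, a nuclear receptor of the same programme, differed by -1.03 ± 0.22 and Ppargc1b, its coactivator, by -1.27 ± 0.37, while Nrf1 was higher by 0.78 ± 0.21. Of 16 genes in this list 5 were lower and 1 higher, against 7.64% and 12.1% of all genes, the higher count being below its share. The lower count was 2 without anti-PD-L1 replicate 2 or anti-CD8a replicate 1 or 2. The calls lost were Ppargc1b without anti-PD-L1 replicate 2 or anti-CD8a replicate 1, 2 or 3 and Nrf1 without anti-PD-L1 replicate 2 or anti-CD8a replicate 1 or 2. In the citric acid cycle and pyruvate entry 9 of 22 genes were lower (median -0.43), 15 under upper-quartile scaling, 14 by DESeq2, 6 with no filter (and 1 higher) or with the 6 libraries alone, and 3 without anti-CD8a replicate 2, 4 without anti-CD8a replicate 1 and 5 without anti-PD-L1 replicate 1 or 2. Pdp1, which activates pyruvate dehydrogenase, differed by -1.19 ± 0.28 (SE, edgeR adjusted p = 0.00848), Dlat, a core of that complex, by -0.89 ± 0.20, Idh3a by -0.78 ± 0.19 and Sucla2 by -0.67 ± 0.17, of which only the call of Sucla2 was lost, without anti-PD-L1 replicate 1 or anti-CD8a replicate 1 or 2.

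Enzymes of other fuels were mixed. In glycolysis and glycogen use 2 of 27 were higher and 4 lower (median -0.21, and -0.67 without anti-PD-L1 replicate 3), with 9 lower under upper-quartile scaling, 10 by DESeq2 and 8 with no filter. Over all genes 12.1% were higher and 7.64% lower, so the higher count was below its share and the lower count above. Pgam2, the muscle form of phosphoglycerate mutase, had 303, 266 and 571 CPM under anti-PD-L1 against 1131, 1126 and 923 CPM under anti-CD8a, a log2 fold change of -1.48 ± 0.31 (SE, edgeR adjusted p = 0.00513). Pgm1, which links glycogen to glycolysis, differed by -1.48 ± 0.38, Ldhb by -1.27 ± 0.43 and Pfkfb3, an activator of glycolysis, by 1.95 ± 0.60. Their calls were lost for Pgm1 without anti-PD-L1 replicate 2 or anti-CD8a replicate 1, Ldhb without anti-PD-L1 replicate 2 or 3 or anti-CD8a replicate 1 or 2 and Pfkfb3 without anti-PD-L1 replicate 1 or 2 or anti-CD8a replicate 1, 2 or 3, and the counts were 0 without anti-CD8a replicate 1 and 1 without anti-PD-L1 replicate 1 or 2 or anti-CD8a replicate 2 or 3 higher, and 1 without anti-PD-L1 replicate 2 or anti-CD8a replicate 1 and 8 without anti-PD-L1 replicate 3 lower. For fatty acid use 2 were higher and 2 lower of 28, below the shares over all genes (12.1% and 7.64%). The median, -0.13, turned to 0.07 without anti-PD-L1 replicate 3 and to 0.04 without anti-CD8a replicate 2. Acaa2 and Acadm, of the oxidation spiral, differed by -1.01 ± 0.21 and -0.67 ± 0.17, and Ucp2 and Echs1 by 0.88 ± 0.27 and 0.64 ± 0.21. The last 3 calls were lost for Acadm without anti-CD8a replicate 2, Ucp2 without anti-PD-L1 replicate 1, 2 or 3 or anti-CD8a replicate 1 or 2 and Echs1 without anti-PD-L1 replicate 1 or 2 or anti-CD8a replicate 1, 2 or 3. In lipogenesis 2 of 16 were higher, near the 12.1% of all genes called higher. They were Insig1, a brake on sterol synthesis, by 1.33 ± 0.36 and Acacb, which makes malonyl-CoA at mitochondria, by 0.85 ± 0.21. Both calls were absent without anti-PD-L1 replicate 2 or anti-CD8a replicate 1, and that of Insig1 also without anti-CD8a replicate 2. Of 17 genes of branched-chain amino acids 1 was lower, below the 7.64% of all genes. That was Mccc1, at -0.40 ± 0.14, a call lost on leaving out any one library.

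The contractile apparatus itself showed no called gene in fast fibres, 0 of 14 by edgeR, with a median of -0.27; 2 had an unadjusted p under 0.05, DESeq2 called 1 and edgeR without anti-PD-L1 replicate 3 called 3. The member of smallest p was Tnnc2, the fast calcium sensor troponin C, at 3011, 5502 and 5966 CPM under anti-PD-L1 against 7971, 6899.6 and 6687 CPM under anti-CD8a (edgeR adjusted p = 0.105). Slow fibre genes had a median of -1.57, but their levels varied widely within both groups, with sums of 1295 to 5845 CPM and 2162 to 11010 CPM in overlapping ranges. Of 13 only Myh7b, a slow myosin, was called, by -2.43 ± 0.63 (SE, edgeR adjusted p = 0.015), a call that ended without anti-PD-L1 replicate 2 or anti-CD8a replicate 2, while leaving out anti-CD8a replicate 3 gave 2.

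By contrast, genes of the sarcoplasmic reticulum, the calcium store, and of membrane excitation were lower: 9 of 24, none higher, with a median of -0.73, and 6 to 9 without any one library. Kcng4, a potassium channel subunit, stood at 0.763, 0.728 and 1.72 CPM in the anti-PD-L1 libraries (replicates 1 to 3) and 14.4, 13.5 and 9.26 CPM in the anti-CD8a libraries. The highest anti-PD-L1 library was several-fold below the lowest anti-CD8a library, and the log2 fold change was -3.52 ± 0.43 (SE, edgeR adjusted p = 0.000394). Sypl2, a protein of the triad where nerve signal meets the calcium store, had 67.2, 50.4 and 109 CPM under anti-PD-L1 against 387, 312 and 267 CPM under anti-CD8a and differed by -2.09 ± 0.44 (SE, edgeR adjusted p = 0.00536). Casq1, the calcium buffer of fast fibres, differed by -1.86 ± 0.48 and Pln, the inhibitor of the calcium pump, by -1.81 ± 0.47. These 2 calls were lost for Casq1 without anti-PD-L1 replicate 1 or 2 or anti-CD8a replicate 1 and Pln without anti-PD-L1 replicate 2.

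At the synapse of nerve and muscle, Runx1 and Myog, transcription factors that rise when muscle loses its nerve, were higher by 2.05 ± 0.41 (SE, edgeR adjusted p = 0.00432) and 1.61 ± 0.37 (SE, edgeR adjusted p = 0.0086). Runx1 stood at 10.8, 12.1 and 6.20 CPM under anti-PD-L1 against 2.02, 1.88 and 3.07 CPM under anti-CD8a. Lrp4, the receptor for the nerve's signal agrin, and Ache, the esterase of the synapse, were lower, at -0.98 ± 0.22 and -0.94 ± 0.30. These were 2 higher and 2 lower of 18 tested, not far from the 12.1% and 7.64% of all genes, with a median of 0.00. The call of Ache was lost without any one library other than anti-CD8a replicate 1. Of 14 muscle stem cell genes 1 was higher, below the 12.1% of all genes. That was Cdh15, which joins stem cells to fibres, by 0.84 ± 0.26. Among the fits that left out 1 library, its call held only without anti-PD-L1 replicate 3. The list's median was -0.37, and 3 lower calls were made without anti-PD-L1 replicate 3 and 1 without anti-PD-L1 replicate 1.

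**Figure D3:**
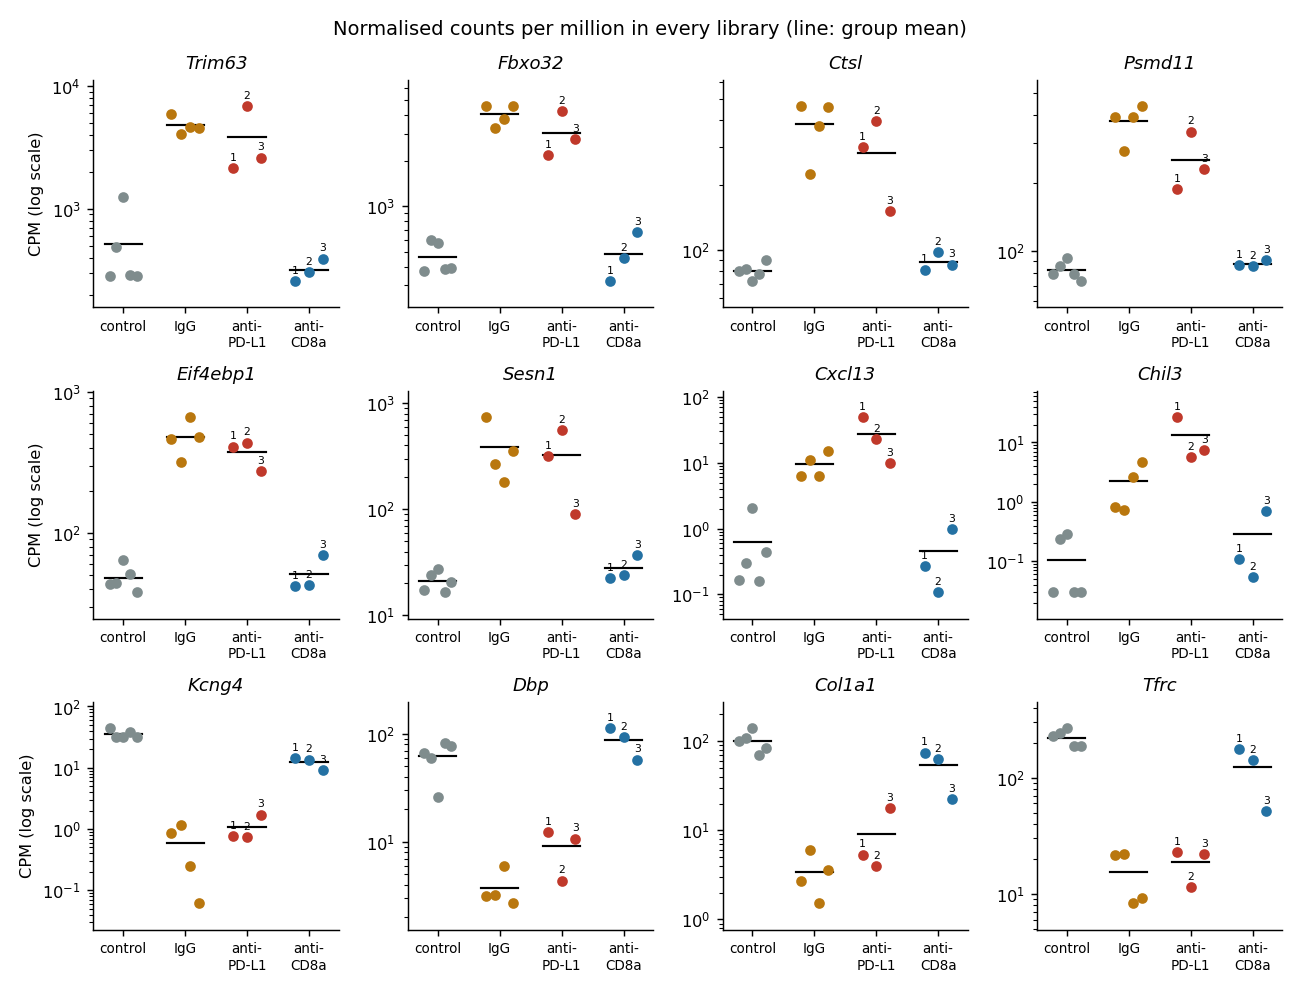
Normalised CPM (y axis, log scale) of 12 genes in the control, IgG, anti-PD-L1 and anti-CD8a libraries (x axis); points are libraries, numbers are replicates, lines are group means, and levels of 0 are drawn at the foot of the panel. In each panel the anti-PD-L1 points do not overlap the anti-CD8a points, as in 38.3% of all genes tested. Several of these genes are among the largest differences, a set confined by rule to genes without overlap, so the separation adds no support.

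Called collagen genes were all lower, and called genes among other matrix genes were all higher. Of 17 collagen genes 7 were lower and none higher (median -0.83). Col1a1, a chain of the main fibrillar collagen, stood at 5.34, 3.94 and 17.8 CPM in the anti-PD-L1 libraries (replicates 1 to 3) and 74.8, 63.2 and 22.5 CPM in the anti-CD8a libraries. Anti-PD-L1 replicate 3 and anti-CD8a replicate 3 lay close to each other, the other libraries far apart, and the log2 fold change was -2.56 ± 0.54 (SE, edgeR adjusted p = 0.00584). Col3a1 differed by -2.37 ± 0.51 with the same pair of libraries closest, at 26.8 and 30.3 CPM. Col1a2 and Col15a1 differed by -1.56 ± 0.42 and -1.24 ± 0.34. The count was 2 without anti-PD-L1 replicate 1 or 2 or anti-CD8a replicate 1 or 2 and 11 without anti-PD-L1 replicate 3, with Col1a1 and Col3a1 called in each case and Col1a2 and Col15a1 lost without anti-PD-L1 replicate 1 or 2 or anti-CD8a replicate 1 or 2. Among 26 other matrix and fibroblast genes 5 were higher and none lower, with a median of 0.11 that turned to -0.01 under upper-quartile scaling and to -0.067 without anti-PD-L1 replicate 3. Lower calls there were 2 without anti-PD-L1 replicate 3 and 1 each under upper-quartile scaling, by DESeq2 or without anti-CD8a replicate 3. Dcn, a small proteoglycan of fibroblasts, had 1053, 957 and 1132 CPM under anti-PD-L1 against 458, 525 and 589.7 CPM under anti-CD8a and differed by 0.998 ± 0.18 (SE, edgeR adjusted p = 0.00253). Mmp14, a protease that degrades matrix, was higher by 1.73 ± 0.24, Pdgfra, the fibroblast receptor, by 1.0004 ± 0.19 and Lox, which crosslinks collagen, by 2.11 ± 0.52, whose call was lost without anti-PD-L1 replicate 2 or anti-CD8a replicate 2. The list held 3 without anti-CD8a replicate 2. In 11 tendon genes 2 were lower, Tnmd and Kera, by -2.27 ± 0.55 and -2.28 ± 0.63, 0 without anti-CD8a replicate 2 and 1 without anti-PD-L1 replicate 2; their summed list was 91.4 to 152 CPM under anti-PD-L1 and 86.9 to 163 CPM under anti-CD8a.

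Macrophage markers were higher, but unevenly between libraries. Of 22 markers 13 were higher and none lower (median 1.35), and the summed level of all 24 was 805, 289 and 403 CPM in the anti-PD-L1 and 101, 148 and 313 CPM in the anti-CD8a libraries. Replicate 1 of anti-PD-L1 stood apart, and the sums of anti-PD-L1 replicate 2 and anti-CD8a replicate 3 overlapped. The count was 2 without anti-CD8a replicate 1, 3 without anti-PD-L1 replicate 1 and 4 without anti-CD8a replicate 2, and 4 when the 6 libraries were fitted alone. Lyve1, of macrophages along vessels and also of lymph vessels, had 32.5, 37.8 and 17.3 CPM under anti-PD-L1 against 5.72, 8.16 and 10.7 CPM under anti-CD8a, differed by 1.83 ± 0.32 (SE, edgeR adjusted p = 0.00205) and kept its call in each of these. Cd68, a lysosomal protein of macrophages, differed by 2.16 ± 0.64, Ms4a4a by 1.91 ± 0.47 and Ms4a6c by 1.81 ± 0.53, calls lost for Cd68 and Ms4a6c without anti-PD-L1 replicate 1 or anti-CD8a replicate 1 or 2 and Ms4a4a without anti-PD-L1 replicate 1 or anti-CD8a replicate 1. Genes of antigen presentation by MHC class II, 0 of 9 called by edgeR and by DESeq2 and 0 with an unadjusted p under 0.05, had a median of 0.25; leaving out anti-CD8a replicate 3 gave 2. Its member of smallest p, Itgax, was at 3.38, 0.686 and 0.528 CPM under anti-PD-L1 against 0.163, 0.429 and 1.34 CPM under anti-CD8a (edgeR adjusted p = 0.243).

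Neutrophil and inflammatory monocyte genes were low in all libraries and higher under anti-PD-L1. Of 15 such markers 7 passed the filter on low counts, and 5 of these were called. The filter required a level in as many libraries as the smallest group holds, whatever their group. A marker could thus pass through the libraries where it is high. The sum over all 15 was 61.1, 69.7 and 24.4 CPM in anti-PD-L1 and 3.80, 4.88 and 11.7 CPM in anti-CD8a, without overlap. Chil3, a secreted lectin-like protein of monocytes, neutrophils and activated macrophages, stood at 26.7, 5.66 and 7.34 CPM in the anti-PD-L1 libraries (replicates 1 to 3) and 0.109, 0.0537 and 0.693 CPM in the anti-CD8a libraries. Anti-PD-L1 replicate 1 was the highest, and the log2 fold change was 5.46 ± 0.96 (SE, edgeR adjusted p = 0.00209). Its anti-CD8a counts were only 2, 1 and 14, so the size is less certain. S100a8 and S100a9, the subunits of calprotectin, differed by 3.03 ± 0.71 and 2.40 ± 0.75, and Ngp, a granule protein, by 3.88 ± 0.89. Ngp had 0, 3 and 8 anti-CD8a counts, so its size is less certain too. The count was 2 without anti-CD8a replicate 1 and 3 without anti-PD-L1 replicate 2 or anti-CD8a replicate 2, and the calls lost were Ngp without anti-PD-L1 replicate 2, S100a8 without anti-CD8a replicate 1 and S100a9 without anti-PD-L1 replicate 1 or 2 or anti-CD8a replicate 1 or 2. Ly6g, which marks mature neutrophils, had 1, 0 and 0 counts in anti-PD-L1 and 0, 0 and 2 in anti-CD8a.

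Most lymphocyte markers were too low to test. Of 24 T and cytotoxic cell markers 3 could be tested and 0 were called by edgeR, 1 with an unadjusted p under 0.05. DESeq2, upper-quartile scaling and the fits without anti-PD-L1 replicate 2 or 3 or without anti-CD8a replicate 3 each called 1 lower. Their sums were 3.25 to 7.95 CPM and 4.51 to 6.65 CPM, and Gzmk and Ifng had no count in any of the 6 libraries. Cd28, the costimulatory receptor, had the smallest p, at 1.57, 1.11 and 2.51 CPM under anti-PD-L1 against 5.45, 3.76 and 1.63 CPM under anti-CD8a (edgeR adjusted p = 0.0589). Anti-PD-L1 replicate 2 held more B and plasma cell transcripts of several genes: Ighg1 had 549 counts there and 1, 0, 0, 0 and 0 in the other 5 libraries, Jchain 197 against 1 to 7 and Pax5 26 against 0 to 1. Some T cell transcripts were also higher there, Cd4 at 29 counts against 0 to 2, Trbc2 at 21.8 against 0 to 1, Lck at 18 against 0 to 3 and Cd3g at 12 against 0 to 1. Others were not: Cd3e had 8 counts there against 5 to 9 in anti-CD8a, and Cd2 15 against 5 to 35 in the rest. Cd28, at 26 counts, was lowest there of the 6 libraries. Igkc, the kappa light chain, had 698 counts there and 11 and 12 in the other anti-PD-L1 libraries, against 1, 2 and 3 counts in anti-CD8a. Igkc was called (edgeR adjusted p = 0.0222), but with so few anti-CD8a counts its fold is not given, and the call was lost when the 6 libraries were fitted alone and without anti-PD-L1 replicate 2 or any one anti-CD8a library. Mpo, a protein of immature granulocytes, had 29 counts in anti-PD-L1 replicate 2 and 0 to 1 in the others. The summed B and plasma cell list was 3.05, 77.9 and 17.01 CPM under anti-PD-L1 and 37.7, 56.1 and 12.6 CPM under anti-CD8a, where Ighm gave most of the counts (684 in replicate 1 and 1031 in replicate 2, fewer in replicate 3).

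**Figure D4:**
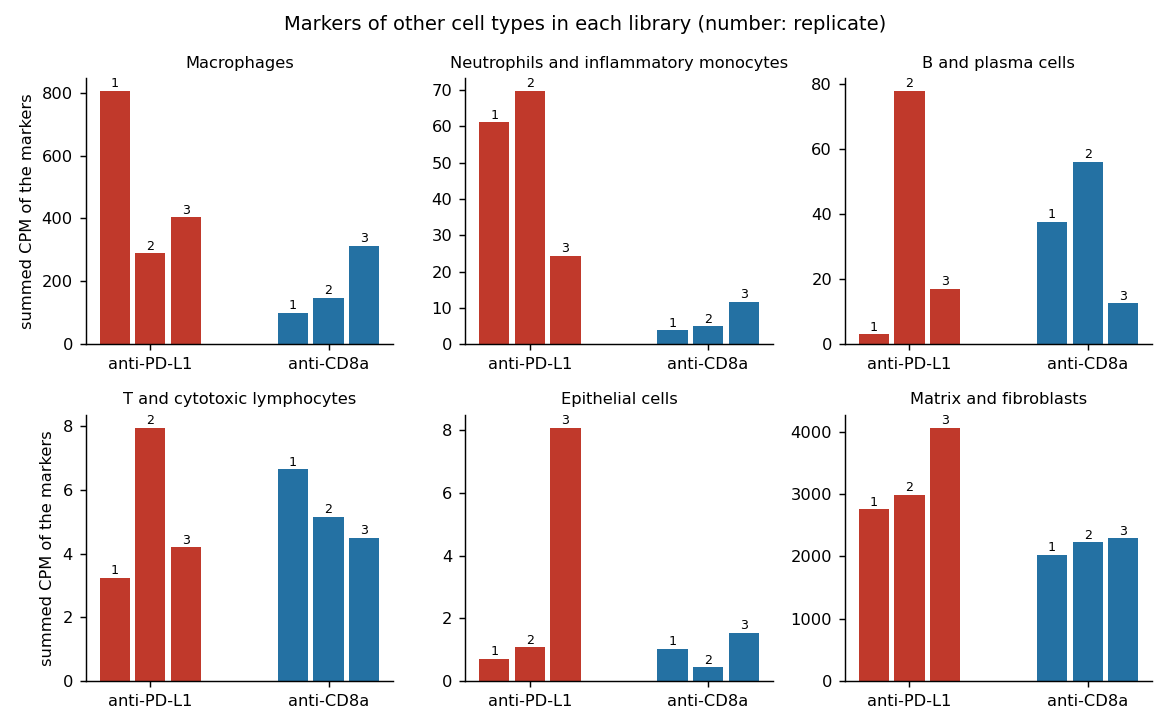
Summed normalised CPM (y axis, from 0) of 6 marker lists in each anti-PD-L1 and anti-CD8a library (x axis; numbers are replicates). Macrophage markers are highest in anti-PD-L1 replicate 1 (805 CPM), B and plasma cell markers in anti-PD-L1 replicate 2 (77.9 CPM) and epithelial markers in anti-PD-L1 replicate 3 (8.09 CPM).

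Other cell types gave few calls. Of 12 epithelial markers 4 were tested and 0 called by edgeR, 1 with an unadjusted p under 0.05; DESeq2 called 1 and the fit without anti-PD-L1 replicate 1 called 1. Anti-PD-L1 replicate 3 held more keratin counts than the rest, Krt8 60 against 1 to 6, Krt18 52 against 2 to 11 and Krt19 43 against 1 to 8, while Krt5 and Nkx2-1 had no count in any of the 6. Endothelial (0 of 13), Schwann cell (0 of 10), adipocyte (0 of 10) and red blood cell genes (0 of 7) were not called by edgeR with the filter or by DESeq2, with medians of -0.25, -0.37, 1.04 and -0.02. An unadjusted p under 0.05 was found for 3, 1, 4 and 0 of them in that order. Their smallest p belonged to Cldn5 (0.96 ± 0.40), Mag (-1.45 ± 0.63), Retn (2.696 ± 0.97) and Slc4a1 (0.64 ± 1.05). Leaving out a library gave up to 3 adipocyte calls (without anti-PD-L1 replicate 1), 2 endothelial (the same library) and 1 Schwann cell call (without anti-CD8a replicate 2). With no filter edgeR called 4 adipocyte genes and 1 endothelial gene higher, and with the 6 libraries alone 2 adipocyte genes. The summed adipocyte list did not overlap, at 632 to 1039 CPM under anti-PD-L1 and 447 to 585 CPM under anti-CD8a. Among 11 genes of vessel wall cells, Mustn1, also a gene of muscle fibres, was higher by 2.41 ± 0.48 (SE, edgeR adjusted p = 0.00396) in each leave-one-out fit, and Cspg4 and Rgs5, of pericytes, were lower, at -0.87 ± 0.25 and -0.75 ± 0.22, calls lost for Cspg4 without anti-PD-L1 replicate 1 or 2 or anti-CD8a replicate 1 or 3 and Rgs5 without anti-PD-L1 replicate 2 or 3 or anti-CD8a replicate 2 or 3. Whether the share of any cell type sets a result above was not tested.

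Interferon-induced genes were lower or not called under anti-PD-L1: of 35 tested 4 were lower and 0 higher, a share not far from the 7.64% of all genes called lower, and the median was -0.70. Upper-quartile scaling and DESeq2 each called 7 lower, and leaving out anti-CD8a replicate 1 gave 1 higher call. Ifit3b, an antiviral protein, stood at 0.810, 0.429 and 1.36 CPM under anti-PD-L1 against 3.32, 3.06 and 4.01 CPM under anti-CD8a, a log2 fold change of -1.99 ± 0.39 (SE, edgeR adjusted p = 0.00377). Ifit3 was lower, at -1.59 ± 0.41, Gbp7, a guanylate-binding protein, by -0.94 ± 0.21 and Ifi27 by -0.59 ± 0.18, with calls lost for Ifit3 without anti-CD8a replicate 3 and Ifi27 without anti-PD-L1 replicate 1 or 2 or anti-CD8a replicate 1 or 2. MHC class I and immunoproteasome genes gave 2 higher and 1 lower calls of 20, no more than the 12.1% and 7.64% of all genes. These were H2-D1 and B2m, which form the presenting complex, by 0.56 ± 0.19 and 0.43 ± 0.14, and Psme1, an interferon-induced proteasome cap, by -0.78 ± 0.18. The calls of H2-D1 and B2m were absent under upper-quartile scaling, and those lost on leaving out a library were H2-D1 without anti-PD-L1 replicate 2 or 3 or anti-CD8a replicate 1 or 2, B2m without anti-PD-L1 replicate 2 or anti-CD8a replicate 1, 2 or 3 and Psme1 without anti-CD8a replicate 2.

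Of 18 acute phase and IL-6 signalling genes tested 9 were higher and none lower, with a median of 1.35, against 12.1% and 7.64% of all genes. Of the 22 listed, 4 were below the filter on low counts, which genes could pass through libraries where they are high. Members with hardly any anti-CD8a counts, such as Saa3 and Serpina3m, could hardly be called lower. Il6ra, the receptor for IL-6, stood at 72.9, 169 and 49.3 CPM in the anti-PD-L1 libraries (replicates 1 to 3) and 8.93, 11.7 and 23.7 CPM in the anti-CD8a libraries. Every anti-PD-L1 library was above every anti-CD8a library, and the log2 fold change was 2.71 ± 0.51 (SE, edgeR adjusted p = 0.00311). Serpina3n, a protease inhibitor of the acute phase, had 46.0, 59.5 and 11.0 CPM under anti-PD-L1 against 2.02, 1.72 and 4.604 CPM under anti-CD8a and differed by 3.79 ± 0.85 (SE, edgeR adjusted p = 0.0076). Saa3 and Serpina3m were also called, at 1.76, 0.0857 and 1.80 CPM under anti-PD-L1 against 0, 0.0537 and 0.0495 CPM under anti-CD8a and 1.76, 5.44 and 0.0440 CPM under anti-PD-L1 against 0, 0.0537 and 0.0990 CPM under anti-CD8a, but with 3 or fewer anti-CD8a counts in all their fold is not given, and their calls were lost for Saa3 without anti-PD-L1 replicate 1 or 3 or anti-CD8a replicate 1, 2 or 3 and Serpina3m without anti-PD-L1 replicate 2 or anti-CD8a replicate 1 or 2. The list held 4 without anti-PD-L1 replicate 2 or anti-CD8a replicate 1 and 5 without anti-CD8a replicate 2, with a median of 0.72 without anti-PD-L1 replicate 2. With the 6 libraries alone 4 of 14 were called, at a median of 0.87. Complement genes were 6 higher and 1 lower of 15, a median of 0.89, with C4b higher by 1.98 ± 0.36 (SE, edgeR adjusted p = 0.00247), C3, the central component, by 1.66 ± 0.30 and C2 by 1.56 ± 0.52; the call of C2 was lost without any one library other than anti-PD-L1 replicate 1. C3 stood at 107, 80.1 and 155 CPM under anti-PD-L1 against 32.0, 34.1 and 42.3 CPM under anti-CD8a.

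Chemokine genes gave 2 higher of 12 tested, not far from the 12.1% of all genes called higher. Cxcl13, the attractant of B cells, stood at 49.5, 22.9 and 9.98 CPM in the anti-PD-L1 libraries (replicates 1 to 3) and 0.272, 0.107 and 0.990 CPM in the anti-CD8a libraries. The groups were far apart, with replicate 1 the highest of anti-PD-L1 and replicate 3 of anti-CD8a, and the log2 fold change was 5.86 ± 0.86 (SE, edgeR adjusted p = 0.000868). Anti-CD8a replicate 2 was below the floor, so the size is less certain. In the IgG libraries it was 6.33 to 15.4 CPM and in control 0.162 to 2.07 CPM. Ccl6, of myeloid cells, differed by 1.68 ± 0.56, with overlapping ranges and a call that ended without anti-PD-L1 replicate 1 or anti-CD8a replicate 1 or 2.

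The largest differences outside these lists lay in genes of varied function. Among those higher, Rgs2, an inhibitor of G protein signals, stood at 41.7, 59.5 and 37.8 CPM under anti-PD-L1 against 3.54, 4.24 and 4.21 CPM under anti-CD8a, tight within each group, with a log2 fold change of 3.53 ± 0.54 (SE, edgeR adjusted p = 0.00102). Sox4, a transcription factor, differed by 3.42 ± 0.71 and Cyp2e1, an oxidase of small molecules, by 4.08 ± 1.18, both with anti-PD-L1 replicate 2 highest, at 109 and 104 CPM. Cacna1i, a calcium channel, differed by 3.43 ± 0.80 and Unc93a2 by 3.91 ± 0.54. Zxda and Ripor3 were called at 1.53, 3.13 and 1.41 CPM under anti-PD-L1 against 0.218, 0 and 0 CPM under anti-CD8a and 1.76, 5.87 and 0.396 CPM under anti-PD-L1 against 0.0545, 0 and 0.0990 CPM under anti-CD8a, too few anti-CD8a counts to give a fold. The calls of Cyp2e1 and Ripor3 were lost without anti-PD-L1 replicate 2, and that of Cyp2e1 without any one anti-CD8a library.

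Among the genes lower under anti-PD-L1, Nrep, a regulator of growth factor signals, stood at 2.76, 2.61 and 9.10 CPM in the anti-PD-L1 libraries (replicates 1 to 3) and 109, 97.8 and 41.7 CPM in the anti-CD8a libraries. The groups did not overlap, as the naming rule for the genes of this and the preceding paragraph required, so this adds no support. Trim63, Sesn1, Cxcl13, Chil3, Kcng4 and Dbp, described with their lists, were also among the largest differences that met this rule. For Nrep the values were as follows. Its log2 fold change was -4.09 ± 0.54 (SE, edgeR adjusted p = 0.000581). Trim7, a ubiquitin ligase that binds the glycogen primer, had 2.81, 2.23 and 4.002 CPM under anti-PD-L1 against 34.5, 30.01 and 18.1 CPM under anti-CD8a and the smallest adjusted p of the lower named genes, 0.000247 by edgeR, with a log2 fold change of -3.19 ± 0.33. Aqp4, the water channel of fast fibres, was at 4.24, 0.900 and 1.98 CPM under anti-PD-L1 against 31.4, 21.9 and 40.8 CPM under anti-CD8a, a log2 fold change of -3.73 ± 0.50. Nmrk2, a muscle kinase that makes a precursor of NAD, differed by -3.42 ± 0.69, Tmem233 by -3.44 ± 0.62 and Gdap1, a protein of mitochondrial membranes, by -3.04 ± 0.59. Mettl21e, a muscle methyltransferase, differed by -3.21 ± 0.61, Crip3 by -3.73 ± 0.58, Pld5 by -4.24 ± 0.55 and AC122818.4 by -3.84 ± 0.42. Pld5 and Crip3 were near the floor under anti-PD-L1, so their size is less certain. Each of these 10 calls held without any one library.

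**Figure D5:**
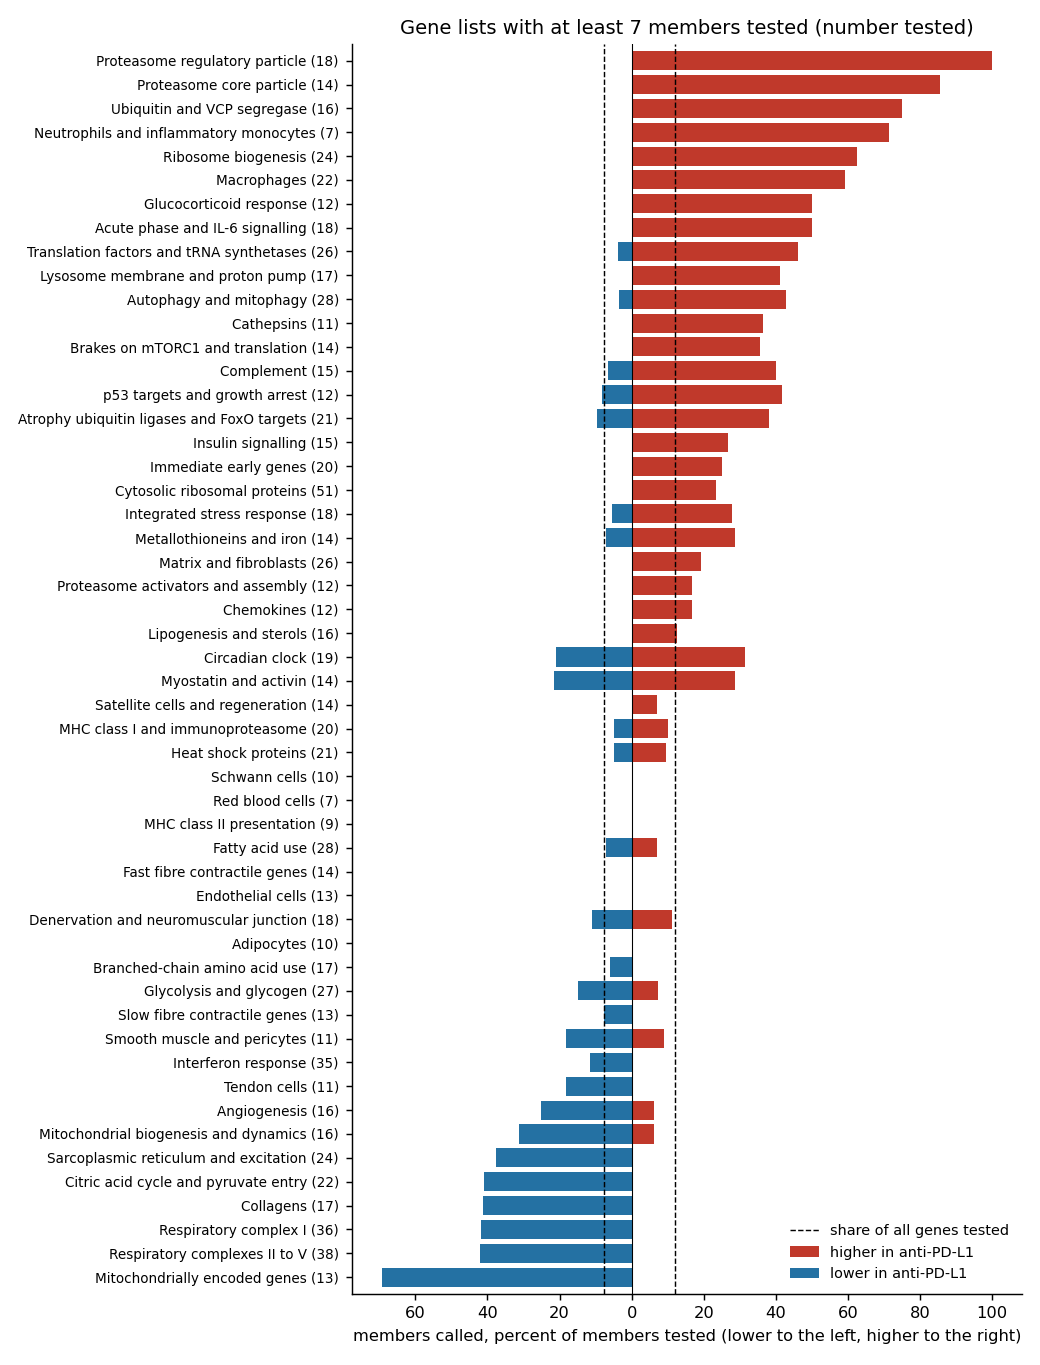
Share of the tested members called higher (red, to the right) or lower (blue, to the left) in anti-PD-L1, in percent (x axis), for each gene list with at least 7 members tested (y axis; number tested in brackets). Dashed lines are the shares over all genes, 12.1% higher and 7.64% lower; the cap of the proteasome is at the upper end and the mitochondrially encoded genes are at the lower.

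Set beside the other groups, anti-CD8a libraries were nearer to mice without a tumour and anti-PD-L1 libraries nearer to IgG in most called genes. Of the 2836 called genes, the mean log2 CPM of control was nearer to anti-CD8a in 2678 (94.4%), and that of IgG nearer to anti-PD-L1 in 2628 (92.7%). Among the 11536 genes not called these shares were 72.4% and 70.1%. On the linear scale the first count was 2669. Trim63 had 4044 to 5944 CPM in IgG and 282.8 to 1258 CPM in control, and Kcng4 0.0611 to 1.14 and 31.7 to 44.1 CPM. Some levels under anti-PD-L1 lay apart from IgG. Every anti-PD-L1 library was above the IgG range of Chil3, 0.722 to 4.76 CPM, and of Rgs2, 2.02 to 26.5 CPM. For Cxcl13, 6.33 to 15.4 CPM in IgG, the highest anti-PD-L1 library was at 49.5 CPM. Summed macrophage markers were 86.6 to 126.8 CPM in IgG and 138.4 to 243.5 CPM in control. They were 289.1 to 804.9 CPM under anti-PD-L1 and 100.7 to 313 CPM under anti-CD8a. These comparisons with IgG and control are levels side by side and were not tested here.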

How the data were processed

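RNA of 15 libraries was sequenced after MGIEasy RNA Directional preparation, per the labels' protocols. The submitters' processing notes name Trim Galore, STAR 2.7.9a and RSEM 1.3.3, the first for trimming, the others for alignment and counting by their usual role; the build, annotation and strand setting are not given in the sources used here. The deposited values used are RSEM expected counts per gene and, for levels across genes, TPM. Of 55416 genes, 52083 carried a symbol; the others held at most 0.386% of a library.

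Expected counts were rounded to whole numbers. One edgeR 4.0.16 model (R 4.3.3) held all 4 groups, with TMM scaling, filterByExpr and the quasi-likelihood test (11 residual degrees of freedom), with Benjamini-Hochberg adjustment over the 14372 genes tested. The SE is the absolute log2 fold change over the square root of F, and CPM is TMM-scaled. The labels give no pairing, so libraries of the same replicate number were not treated as pairs. Their correlations of deviations were -0.09, -0.03 and -0.00, and so few libraries cannot settle whether the numbers pair them.

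Members and the 55 gene lists were chosen with earlier results of these data known. Named were Ctsl, Trim63, Fbxo32, Cd8a and Cd274, the 15 highest and 15 lowest log2 fold changes among called genes with a mean of at least 1 CPM, no overlap and a symbol other than Gm or Rik names, and up to 4 called members of each list, or its member of smallest p. Alternatives were upper-quartile scaling, DESeq2 1.42.0, other filters, the 6 libraries alone, a replicate block and leaving out each library. Tested on simulated data in which 200 genes differed, the model called 42% of genes with a log2 change of 1 and 96% of those with 2 (13993 genes). Far fewer genes differed there than the 2836 called here, so these rates hold for that setting only. Some named genes are not reported here. Promoter windows are from RefSeq.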

Additional observations from a re-analysis of the deposited data

Results flagged for a closer look

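In the control and IgG groups, 40 sets of values (18 genes, the total count and the mitochondrial share, in each group) were searched for a library far from the rest of its group, and chance alone gives about 1 in 20. Of these, 6 were found. In control, replicate 3 was the high library each time: Trim63 stood at 1258 CPM against 282.8 to 492.6 CPM in the other 4 libraries, Cxcl13 at 2.07 CPM against 0.162 to 0.446 CPM, and Igkc at 1.84 CPM against 0.134 to 0.531 CPM. In IgG, Igkc stood at 4.57 CPM in replicate 2 against 0.122 to 0.248 CPM, Apln at 0.120 CPM in replicate 2, about the level of 2 counts, against 0 in the other libraries, and Dbp at 5.99 CPM in replicate 3 against 2.69 to 3.25 CPM. None of these libraries entered the fold changes between anti-PD-L1 and anti-CD8a, though they shared the estimate of spread. Groups of 3 were not searched in this way.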

How the results depend on the processing

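Fitting the 6 libraries alone called 1712 genes, 914 of them higher. With a replicate block it called 734 genes, 389 higher and 345 lower. Among them were 3 of 14 core and 8 of 18 cap subunits of the proteasome, 1 of 36 complex I genes and 1 of 13 mitochondrially encoded genes. The labels give no pairing, and 0 of 6 libraries correlated best with the library of the other group that carries its number. Groups of 3 are too small to settle whether the numbers pair libraries. Leaving out each library in turn gave 1226 to 3011 calls, 733 to 1796 higher and 443 to 1215 lower. The other alternatives gave 2734 to 3310 calls. The median SD in anti-PD-L1 was 0.213 without replicate 2. The mitochondrial difference was -9.36 to -7.67 points on leaving out a library, -8.42 with the 13 protein-coding genes and -10.01 with the near copies. Of 184 named genes that were called, 78 kept the call in all 12 alternatives and 108 on leaving out any library. Directions turned for Itgax, which ranged from -0.10 without anti-PD-L1 replicate 1 to 2.32 without anti-CD8a replicate 3, and Slc4a1, from -0.035 without anti-PD-L1 replicate 2 to 1.47 without anti-CD8a replicate 3. With the 6 libraries alone the higher calls were 5 for ubiquitin and its segregase, 7 for autophagy (also 7 under upper-quartile scaling) and 4 for lysosome membranes, and the lower calls 2 for collagens. Without a filter there were 5 higher chemokine, 4 lower tendon and 3 lower slow fibre calls. The cause of these shifts was not tested. Genes near the floor of 0.134 to 0.168 CPM, lymphocyte markers above all, cannot be compared at this depth.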

Other observations

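Clock genes differed in both directions, 6 higher and 4 lower of 19 tested, against 12.1% and 7.64% of all genes. Dbp, an output factor of the clock, stood at 12.3, 4.37 and 10.7 CPM in the anti-PD-L1 libraries (replicates 1 to 3) and 113, 93.5 and 57.7 CPM in the anti-CD8a libraries. The groups were several-fold apart, and the log2 fold change was -3.27 ± 0.44 (SE, edgeR adjusted p = 0.000581). Arntl, the core activator also called Bmal1, was higher by 1.998 ± 0.36 (SE, edgeR adjusted p = 0.00229) at 13.97, 39.9 and 23.7 CPM under anti-PD-L1 against 5.94, 4.99 and 8.46 CPM under anti-CD8a, Npas2, its partner, by 2.48 ± 0.60 and Cry2, a repressor, by 1.91 ± 0.34. The call of Npas2 was lost without anti-PD-L1 replicate 2 or anti-CD8a replicate 1, and the higher count was 3 without anti-PD-L1 replicate 2. The lower count was 2 without anti-PD-L1 replicate 2 or anti-CD8a replicate 1. The labels give no hour of sampling.

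Genes of metal and iron handling were 4 higher and 1 lower of 14 tested, against 12.1% and 7.64% of all genes, the lower count being near its share. Tfrc, the receptor that takes up iron, stood at 23.02, 11.4 and 21.9 CPM in the anti-PD-L1 libraries (replicates 1 to 3) and 176, 141 and 51.3 CPM in the anti-CD8a libraries. The groups did not overlap, with anti-CD8a replicate 3 nearest to the other group, and the log2 fold change was -2.71 ± 0.44 (SE, edgeR adjusted p = 0.00137). Slc39a14, an importer of zinc and iron, was higher by 3.18 ± 0.63 (SE, edgeR adjusted p = 0.00404). The metallothioneins Mt1 and Mt2, which bind zinc and are close copies, differed by 2.91 ± 0.95 and 3.63 ± 1.22, calls lost without any one library other than anti-PD-L1 replicate 3. The higher count was 1 without anti-PD-L1 replicate 2 or anti-CD8a replicate 1 or 2 and 2 without anti-PD-L1 replicate 1 or anti-CD8a replicate 3.

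In insulin signalling 4 of 15 genes were higher and none lower (median 0.57), against 12.1% and 7.64% of all genes. Akt1, the central kinase, had 148, 162 and 99.0 CPM under anti-PD-L1 against 42.3, 54.8 and 55.1 CPM under anti-CD8a and differed by 1.43 ± 0.28 (SE, edgeR adjusted p = 0.00349), and Pdpk1, which activates it, by 1.05 ± 0.20. The adaptor Irs2 and the receptor Insr differed by 1.80 ± 0.55 and 0.74 ± 0.22, calls lost for Irs2 without anti-PD-L1 replicate 2 or 3 or anti-CD8a replicate 1 or 3 and Insr without anti-PD-L1 replicate 2 or anti-CD8a replicate 1, 2 or 3. The count was 2 without anti-PD-L1 replicate 2 or anti-CD8a replicate 1 or 3.

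Ligands and receptors of vessel growth were 1 higher and 4 lower of 16, against 12.1% and 7.64% of all genes, the higher count being below its share. Vegfd, a growth factor of lymph vessels, stood at 21.6, 47.7 and 18.2 CPM under anti-PD-L1 against 2.996, 4.89 and 3.51 CPM under anti-CD8a, a log2 fold change of 2.94 ± 0.38 (SE, edgeR adjusted p = 0.000513). Apln, the ligand apelin, was lower, at -3.53 ± 0.62 at 0.0953, 0.0857 and 0.132 CPM under anti-PD-L1 against 1.53, 1.61 and 0.693 CPM under anti-CD8a. It was at or below the floor in all 3 anti-PD-L1 libraries, so the size is less certain. Its receptor Aplnr was lower, at -2.25 ± 0.67 and Angpt1 by -1.81 ± 0.39, the call of Aplnr being lost without anti-PD-L1 replicate 1 or 2 or anti-CD8a replicate 1 or 3.

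In the integrated stress response 5 of 18 were higher and 1 lower, against 12.1% and 7.64% of all genes, the lower count being below its share. Ppp1r15a, which restarts translation after stress, had 110.4, 256 and 105.1 CPM under anti-PD-L1 against 17.98, 20.6 and 24.8 CPM under anti-CD8a and differed by 2.89 ± 0.39 (SE, edgeR adjusted p = 0.000581). Slc7a5, Asns and Psph differed by 1.55 ± 0.52, 1.49 ± 0.36 and -1.201 ± 0.35, with calls lost for Slc7a5 without anti-PD-L1 replicate 2 or 3 or anti-CD8a replicate 1, 2 or 3, Asns without anti-PD-L1 replicate 2 or anti-CD8a replicate 1 and Psph without anti-PD-L1 replicate 1 or 2 or anti-CD8a replicate 1 or 2. The higher count was 2 without anti-PD-L1 replicate 2 or anti-CD8a replicate 1 and 3 without anti-CD8a replicate 2, and the lower call was lost without anti-PD-L1 replicate 1 or 2 or anti-CD8a replicate 1 or 2. Of 21 heat shock genes 2 were higher and 1 lower, no more than the 12.1% and 7.64% of all genes. Higher were Hspb1, a small chaperone of muscle, by 1.49 ± 0.31 (SE, edgeR adjusted p = 0.00515) and the factor Hsf2 by 0.79 ± 0.17. Hspd1 was lower, at -0.50 ± 0.15, a call that ended without anti-PD-L1 replicate 1 or 3 or any one anti-CD8a library. Of 20 immediate early genes, the first to answer many stimuli, 5 were higher and none lower, among them Junb by 2.32 ± 0.64, Maff by 2.47 ± 0.74, Fosl2 by 1.67 ± 0.52 and Ier3 by 1.25 ± 0.25. The higher count was 1 without anti-CD8a replicate 1 or 2, 2 without anti-PD-L1 replicate 2 and 3 without anti-PD-L1 replicate 1 or anti-CD8a replicate 3, Ier3 keeping its call, and the list's median of 0.04 turned to -0.076 under upper-quartile scaling. Lower calls appeared in other fits: 1 by DESeq2 or without anti-PD-L1 replicate 3, and 2 with no filter or with the 6 libraries alone. With a replicate block there were 3 lower and 3 higher calls.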
